A study of Canis lupus familiaris with 33 samples.

Results

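Control brains of 4 Boxers were compared with control brains of 5 French Bulldogs, all archived as formalin-fixed paraffin-embedded (FFPE) blocks. The libraries were chosen by their breed, tissue and preservation labels, which gave 9 of the 33 libraries in the series. An FFPE control of another breed was left out. The series compared canine oligodendroglioma, a tumour of glial cells, with brain labelled as healthy, in FFPE and in fresh-frozen tissue. Breed was recorded by the submitters but is not named in their statement of the design. The Boxer controls were dogs 36808, 50276, 50315 and 61478, of which only dog 50315 had a stated age (2 years). The French Bulldog controls were dogs 43323, 45726, 47198, 60460 and 60462, with ages of 4, 6.9 and 8 years stated for dogs 47198, 60460 and 60462. Each library came from a different dog. All brains were sampled at necropsy, at varying times after death, and the interval of each dog, its sex and the brain region were not analysed here. FFPE tumours of 4 Boxers and 6 French Bulldogs, from other dogs, were used to ask whether a breed difference was also present in a second tissue. Most of these tumour dogs had a stated age. The oldest of them were Boxers and the youngest French Bulldogs, although the ages of the breeds overlapped. Age was in none of the fits, and its part in the tumour comparisons was not tested.

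Boxers and French Bulldogs are both short-skulled breeds, and both are known for a high frequency of glioma. Formalin fixation links RNA to protein and breaks it into short pieces, so FFPE libraries of total RNA vary in depth, in their mitochondrial share and in the number of genes they detect. The reads were aligned to CanFam3.1, a reference assembly made from a Boxer, so a French Bulldog read can differ from the reference more often than a Boxer read. What part this had in the results was not tested. The deposited table lists Ensembl identifiers with no gene names, and 0 of them could be paired with a name. The brain label therefore could not be checked against cell type markers, and genes are described by position and structure.

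The 9 libraries differed widely, and some stood apart whatever their breed. Boxer 50315 was the shallowest with 406406 counts, and the other Boxers held 3024897 (50276), 3738314 (36808) and 4098580 (61478). The French Bulldog totals ran from 1596967 in dog 60462 to 9114673 in dog 60460. Ranked over genes, 50315 and 60462 were the least like the rest, with median Spearman correlations of 0.703 and 0.729 with the other 8 libraries, against 0.818 for French Bulldog 45726 and 0.876 to 0.909 for the other 6. French Bulldog 60462 had 40.3% of its counts in the mitochondrial genome, against 13.9% to 27.5% elsewhere. It also detected 20610 genes when every library was thinned to 406406 counts, against 13077 to 14987 in the other 8. Of all 9 libraries it held the highest share of counts in single-exon features of at most 300 bp (6.93%, against 1.51% to 4.23%). As a check for a library deposited more than once, libraries of the same breed were compared pair by pair, and the lowest chi-square was 24.4 per degree of freedom. A fresh-frozen library existed for French Bulldogs 60460 and 60462 and for no Boxer control.

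**Figure D1:**
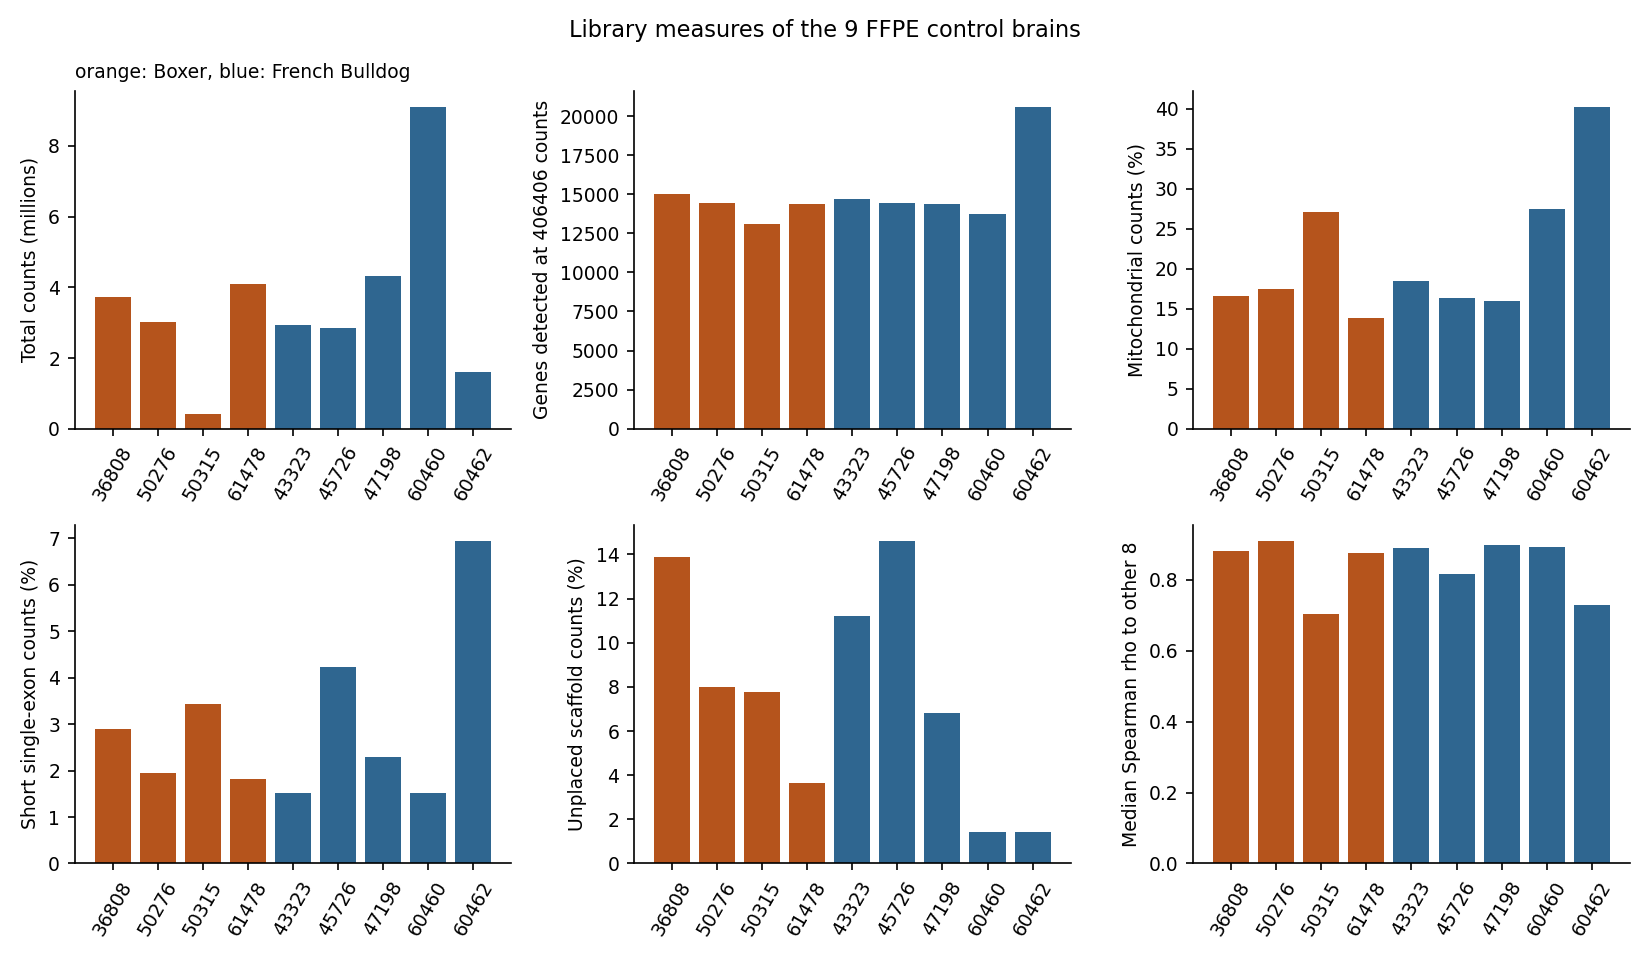
Total counts in M (mega-counts), genes detected after thinning to 406406 counts, percent of counts in 3 classes and median Spearman correlation with the other 8 libraries, one bar per FFPE control library (orange, Boxer; blue, French Bulldog). French Bulldog 60462 has the highest bar in genes detected (20610) and mitochondrial counts (40.3%), and Boxer 50315 the lowest in total counts (406406) and correlation (0.703).

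None of these library measures differed between the breeds beyond the spread among dogs. Total counts averaged 2.82 ± 1.67 M (mega-counts) in Boxers (SD, n = 4) and 4.17 ± 2.93 M in French Bulldogs (n = 5), with a two-sided exact permutation p of 0.492. Mitochondrial counts made up 18.8 ± 5.79% in Boxers and 23.7 ± 10.4% in French Bulldogs (SD; exact permutation p = 0.397). Short single-exon features made up 2.53 ± 0.772% in Boxers and 3.30 ± 2.31% in French Bulldogs (exact permutation p = 0.635), and unplaced scaffolds 8.31 ± 4.22% and 7.09 ± 5.87% (exact permutation p = 0.778). Over the 7 measures the adjusted p lay between 0.689 and 0.778, and p could not go below 0.0159 with 4 against 5 dogs.

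Libraries of 1 breed were no more alike than libraries of different breeds. The mean distance (1 minus Spearman's rho) was 0.187 over the 20 pairs of different breeds, 0.196 over the 6 pairs of Boxers and 0.187 over the 10 pairs of French Bulldogs. The between-breed mean was lower than the within-breed mean by 0.00302 (difference of -0.00302; one-sided exact permutation p = 0.579). The first principal component held 46.5% of the variance and placed Boxer 50315 at 187, with the other 8 libraries between -60.4 and 1.73. The second held 18.4% and placed French Bulldog 60462 at -111, and the third held 12.0% and placed French Bulldog 45726 at 91.2. Each of these 3 components thus had 1 dog at its far end, whichever its breed.

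Gene by gene, no transcript passed the test between the breeds. With edgeR's quasi-likelihood test, 0 of 12975 genes had a Benjamini-Hochberg adjusted p under 0.05 (0%), and the smallest adjusted p was 0.24. At an unadjusted p under 0.05 there were 424 genes (3.27%), 252 with a higher level in Boxers (1.94%) and 172 with a lower level (1.33%). With no breed difference, a share of about 0.05 would be expected, so 3.27% is no excess. DESeq2 called 3 genes, 1 higher and 2 lower in Boxers, and limma voom with quality weights called 1, lower in Boxers. The standard error of a log2 fold change had a median of 0.46, with 10% of genes below 0.34 and 10% above 0.72. In 55 genes all 4 Boxers lay above all 5 French Bulldogs (0.424% of those tested) and in 88 genes all Boxers lay below (0.678%), 1.1% in all. Breed labels placed at random would separate the groups fully in a share of 0.0159 of genes, so this is no excess either. Among the 252 genes higher in Boxers at an unadjusted p under 0.05, the groups did not overlap in 31 (12.3%), and among the 172 lower ones in 45 (26.2%). The median log2 fold change (Boxer over French Bulldog) was 1.42 in the set of 252 genes and -1.39 in the set of 172. Both sets were picked by p in these same 9 libraries, which by itself favours separated groups and large fold changes.

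The genes at an unadjusted p under 0.05 had their highest value most often in a few libraries, which also led many of the genes that did not reach it. All 252 genes higher in Boxers peaked in a Boxer and all 172 lower ones in a French Bulldog, so each share is set beside that over all tested genes that peaked in the same breed. Of the 252 genes higher in Boxers, 145 (57.5%) peaked in dog 50315 and 89 (35.3%) in dog 61478, while 11 peaked in dog 50276 and 7 in dog 36808. Of the 5657 tested genes that peaked in any Boxer, 50315 held the highest value in 47.0% and 61478 in 25.7%. Of the 172 genes lower in Boxers, 90 (52.3%) peaked in French Bulldog 60462 and 55 in 45726 (32%), against 35.9% and 23.2% of the 7318 tested genes that peaked in any French Bulldog. Of the 12975 tested genes, Boxer 50315 exceeded the next library at least 4-fold in 141, French Bulldog 60462 in 48 and Boxer 61478 in 26. French Bulldogs 43323, 45726 and 47198 did so in 7, 4 and 1, and Boxers 36808 and 50276 and French Bulldog 60460 in 0. Boxer 50315 held only 406406 counts, so its high values can rest on few counts. Without Boxers 50315 and 61478, 53 of 14077 tested genes were higher and 90 lower in Boxers at an unadjusted p under 0.05. That fit also held fewer Boxers, which alone can lower such counts, so what the values of these dogs contributed cannot be told apart. Without Boxer 50315 and French Bulldog 60462, the counts were 300 and 197 of 13490, and edgeR again called 0 genes.

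**Figure D2:**
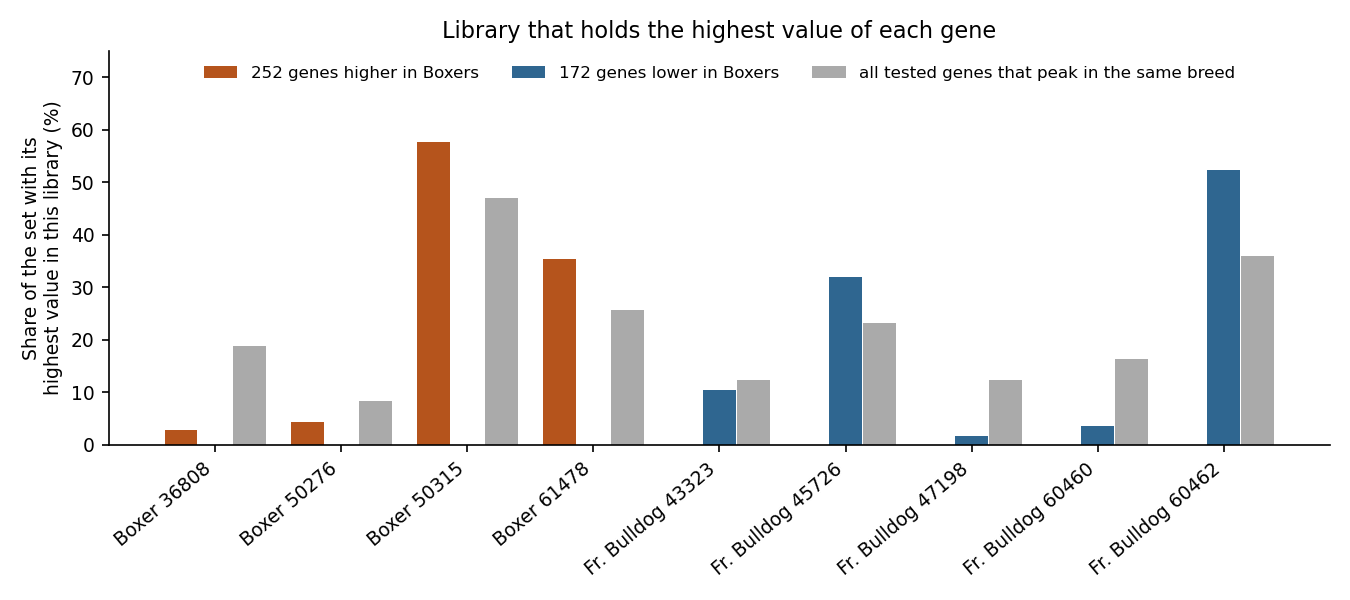
Percent of genes whose highest log2 CPM lay in each FFPE control library, for the 252 genes higher in Boxers (orange), the 172 genes lower in Boxers (blue), both at an unadjusted p under 0.05, and all tested genes that peaked in a library of the same breed (grey). Boxer 50315 holds 57.5% of the orange set and 47.0% of its grey set, and French Bulldog 60462 holds 52.3% of the blue set and 35.9% of its grey set.

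The gene of smallest p was ENSCAFG00000022575, a single-exon feature of 113 bp on chromosome 13 (CanFam3.1, positions 2859051 to 2859163, plus strand) that lies within the span of 1 gene of the opposite strand. Boxers 36808, 50276, 50315 and 61478 had 34.2, 20.5, 39.4 and 29.03 CPM, counts per mega-count of the library. French Bulldogs 43323, 45726, 47198, 60460 and 60462 had 656, 1546, 1578, 289 and 6223 CPM. Every Boxer lay below every French Bulldog, and the lowest French Bulldog was dog 60460. The FFPE control of another breed had 116 CPM, between the 2 groups. These values rested on 16 to 128 counts in Boxers and 1934 to 9938 counts in French Bulldogs. The log2 fold change was -6.16 ± 0.96 (SE), with an unadjusted p of 1.85e-05 and an edgeR adjusted p of 0.24. The adjusted p crossed 0.05 in 7 of 24 alternative analyses, among them DESeq2 (5.32e-14), limma voom (0.00368), the fit without French Bulldog 60460 (0.0376), that without French Bulldog 60462 (0.0168) and that limited to dogs without a fresh-frozen library (0.00302). Over all 24 it ran from 5.32e-14 to 1, and the log2 fold change from -6.45 to -5.00.

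In FFPE tumours the same feature, ENSCAFG00000022575, was low in all Boxers but 1. Boxer tumours 50416, 60461 and 60792 had 9.56, 2.53 and 30.3 CPM, and Boxer tumour 43917 had 899 CPM. The 6 French Bulldog tumours ran from 390 to 1740 CPM, with a median of 663. Boxer 43917 thus lay within the French Bulldog range and the other 3 Boxers below it. The log2 fold change in tumours was -1.79 ± 1.20 (SE; edgeR unadjusted p = 0.16, adjusted p = 1), and an exact permutation test of the mean log2 CPM gave p = 0.0476, or 0.190 adjusted over the 4 genes described here. With both tissues in 1 fit and tissue as a covariate, it was -3.57 ± 1.07 (edgeR unadjusted p = 0.00299, adjusted p = 1), and without Boxer tumour 43917 it was -5.94 with an adjusted p of 0.000789. With any other single library left out of that fit, it ran from -3.85 to -3.13, with edgeR adjusted p of 0.703 or more. The difference between tissues (tumour minus control) was 4.26 ± 1.55 (edgeR unadjusted p = 0.0119, adjusted p = 1).

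**Figure D3:**
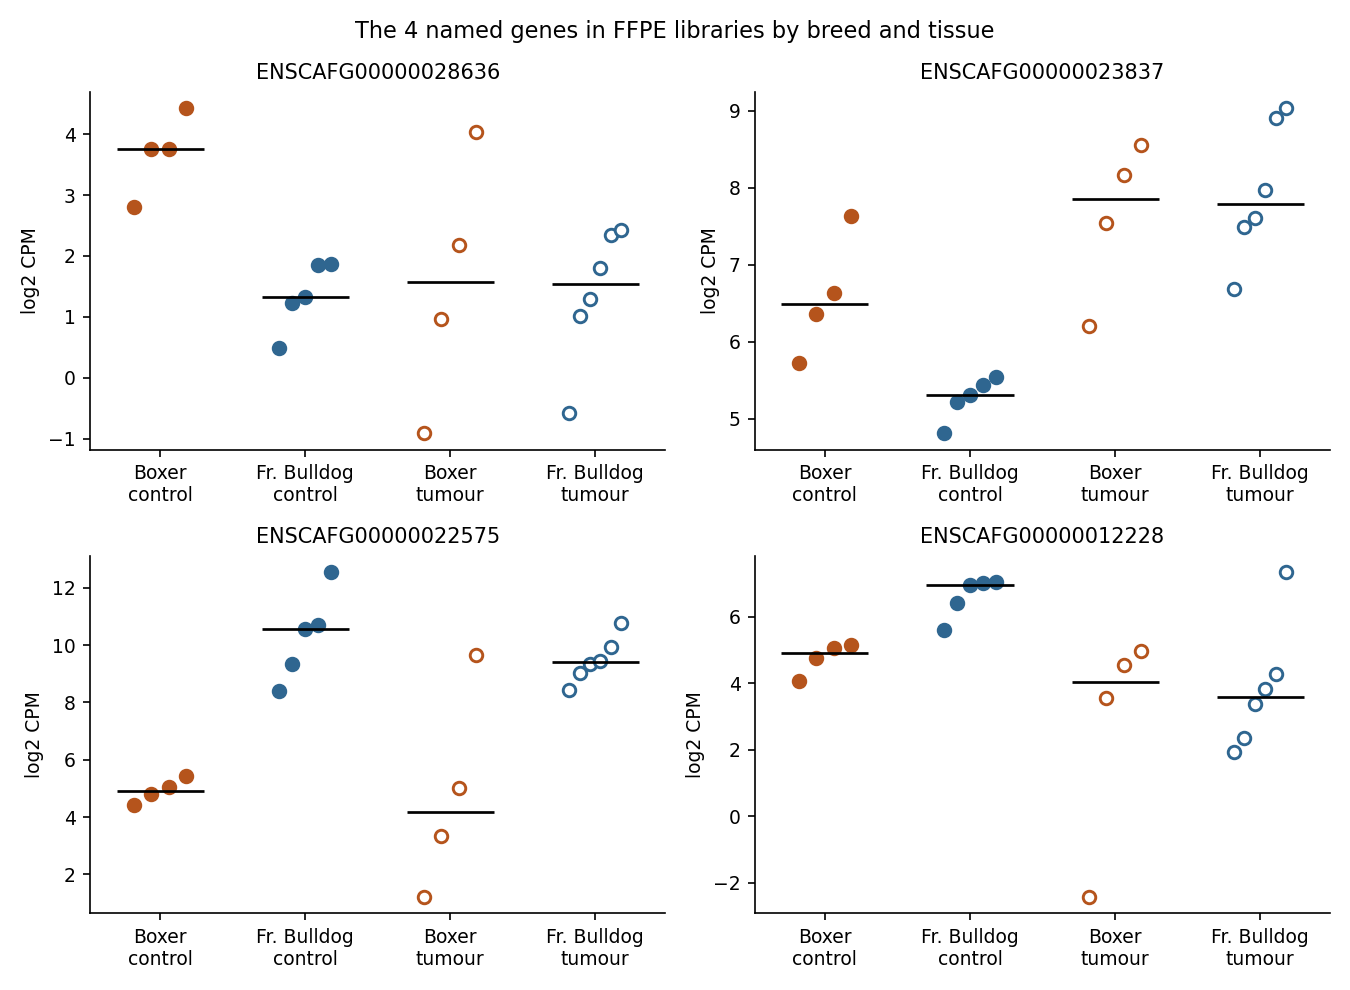
Log2 CPM of the 4 genes named in the text in Boxer and French Bulldog FFPE controls (filled) and FFPE tumours (open), one point per dog, with the line at the group median. The 2 control groups do not overlap in any panel, and the tumour groups overlap in every panel. The 4 genes were picked by their p in these controls, which favours separation there and not in tumours, so the 2 tissues cannot be compared on this point.

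The chromosome 13 feature was also set against the other abundant feature of its length. Of 29 annotated single-exon features of 113 bp, 2 were abundant in the 9 controls: that on chromosome 13 with 26066 counts in all, and another on chromosome 16 (positions 1828824 to 1828936) with 52516. The next highest had 431 counts. Whether these features share sequence, so that a read could be placed on either, was not tested, as no genome of this build was used here. The chromosome 16 feature had 1373 to 2548 CPM in Boxers and 246 to 7473 CPM in French Bulldogs and did not pass the test between breeds, at -0.37 ± 0.75 on the log2 scale (SE; edgeR adjusted p = 1). The counts of both together came to 1393 to 2577 CPM in Boxers and 535 to 13696 CPM in French Bulldogs (two-sided exact permutation p = 0.444).

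Within this pair, the chromosome 13 feature took a small share in every Boxer control and close to an even share in every French Bulldog control. Its share was 1.76%, 1.47%, 1.78% and 1.13% of the pair's counts in Boxers 36808, 50276, 50315 and 61478. In French Bulldogs 43323, 45726, 47198, 60460 and 60462 it was 40.3%, 44.8%, 47.9%, 54.1% and 45.4%. The averages were 1.54 ± 0.308% (SD, n = 4) in Boxers and 46.5 ± 5.05% (SD, n = 5) in French Bulldogs. The least precise Boxer value, that of dog 50315 from 897 counts, had an exact 95% binomial interval of 1.02% to 2.88%. Such intervals cover counting error only, since amplified copies of a molecule may have been counted. The pair was chosen after the values of these 9 libraries had been seen, so the control shares are a description with no test. French Bulldog 60462, which stood apart in most library measures, had a share within the range of the other French Bulldogs.

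The share was then read in FFPE tumours of other dogs, a test that was added after the data had been seen. Boxer tumours 50416, 60461 and 60792 had shares of 0.873%, 0.737% and 1.15%, and Boxer tumour 43917 had 37.5%. French Bulldog tumours had shares of 47.9% to 90.3%, with a median of 57.4%, so that the groups did not overlap. The mean difference was -55.9 percentage points, lower in Boxer tumours, with a two-sided exact permutation p of 0.00952, the smallest that 210 splits can give. With each tumour library left out in turn, the difference ran from -65.0 to -51.0 points and the exact permutation p from 0.0159 to 0.0238. In all, 7 of 8 Boxer FFPE libraries had a share under 2%, and all 13 FFPE libraries of other dogs had a share over 30%.

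Within a dog, the share was compared between FFPE and fresh-frozen tissue. Boxer tumour dog 60461 had 0.737% in its FFPE library (exact 95% binomial interval 0.430% to 1.18%) and 5.92% in its fresh-frozen library (3.90% to 8.56%), so that its value in fresh-frozen tissue lay above 2%. French Bulldog control dogs had 45.4% in FFPE and 48.7% in fresh-frozen tissue (60462), and 54.1% and 61.5% (60460). In all 8 dogs with both kinds of library, the shares differed by less than 15 points, a limit just above the widest gap. That gap was seen in French Bulldog tumour dog 60636 (89.9% in FFPE, 75.6% in fresh-frozen tissue), with intervals of 89.1% to 90.6% and 72.6% to 78.3%. The intervals of the 2 kinds of library overlapped only in tumour dogs 60127 and 60679. In every other dog, both French Bulldog controls included, the share differed between the kinds by more than counting error. The level itself differed far more: the chromosome 13 feature had 289 and 6223 CPM in the FFPE libraries of French Bulldog controls 60460 and 60462, against 10.3 and 35.1 CPM in their fresh-frozen libraries.

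**Figure D4:**
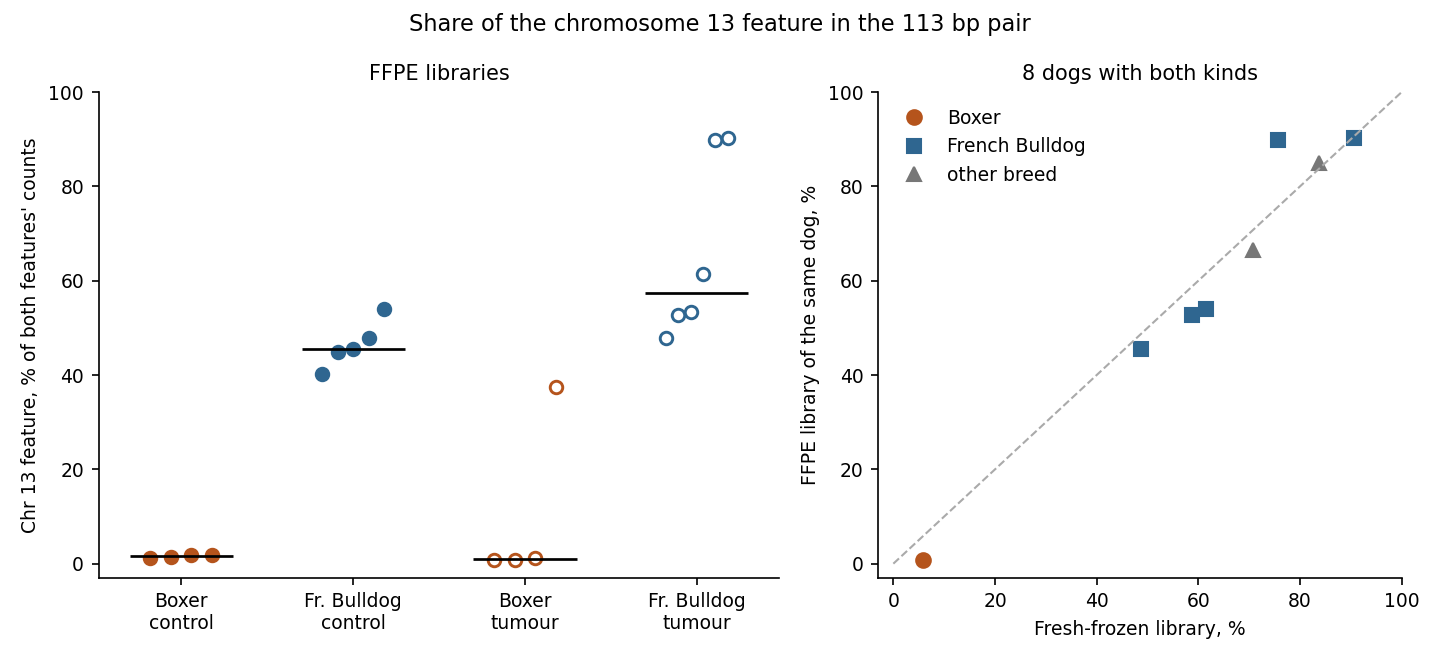
Left, percent of the counts of both 113 bp features that fell on the chromosome 13 one, per dog in Boxer and French Bulldog FFPE controls (filled) and tumours (open), with the line at the group median. Right, the same percent in FFPE (vertical) against fresh-frozen (horizontal) libraries of 8 dogs, with the dashed line marking equal values; 7 of 8 Boxer FFPE libraries lie under 2%.

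The other gene named for a lower level in Boxers was ENSCAFG00000012228, a gene of 3 exons and 741 bp of exonic sequence on chromosome 31 (positions 39784506 to 39788183, minus strand) that overlaps no other gene. Boxers 36808, 50276, 50315 and 61478 had 36.9, 32.4, 24.6 and 17.3 CPM. French Bulldogs 43323, 45726, 47198, 60460 and 60462 had 133, 135, 81.5, 108 and 49.5 CPM. The groups did not overlap, and dog 60462 was the lowest French Bulldog. The log2 fold change was -1.85 ± 0.38 (SE; unadjusted p = 0.000232, edgeR adjusted p = 1), and DESeq2, with an adjusted p of 0.0115, was the only one of 25 alternatives to call it (limma voom 0.153; range 0.0115 to 1). The FFPE control of another breed had 177 CPM, above all 9. In FFPE tumours the breeds overlapped widely, from 0 to 36.9 CPM in Boxers and from 3.91 to 151 CPM in French Bulldogs. The tumour log2 fold change was -1.07 ± 1.14 (SE; edgeR adjusted p = 1).

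The first gene named for a higher level in Boxers was ENSCAFG00000028636, of 8 exons and 2967 bp of exonic sequence on chromosome 27 (positions 1989772 to 2067298, minus strand). It overlaps 2 genes of its own strand and 2 of the opposite strand, and fragments shared with same-strand neighbours were not counted for it. Boxers 36808, 50276, 50315 and 61478 had 13.9, 6.61, 12.3 and 22.4 CPM. French Bulldogs 43323, 45726, 47198, 60460 and 60462 had 2.38, 3.52, 2.08, 2.96 and 1.25 CPM. All Boxers lay above all French Bulldogs, although the Boxer 50315 value rested on 5 counts and the French Bulldog 60462 value on 2. The log2 fold change was 2.44 ± 0.51 (SE; unadjusted p = 0.000246, edgeR adjusted p = 1), and DESeq2, with an adjusted p of 0.0183, was the only one of 23 alternatives to call it (limma voom 0.989; range 0.0183 to 1). In tumours it was 1.02 ± 0.85 (edgeR adjusted p = 1), with 0.330 to 18.3 CPM in Boxers and 0.521 to 5.24 CPM in French Bulldogs. The FFPE control of another breed had 2.52 CPM, and the 4 fresh-frozen controls of other breeds ran from 1.03 to 29.2 CPM, the highest of them above every Boxer control.

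The second was ENSCAFG00000023837, a gene of 14 exons and 4573 bp of exonic sequence on chromosome 17 (positions 54296361 to 54379662, plus strand) with no overlapping gene. Boxers 36808, 50276, 50315 and 61478 had 85.6, 50.9, 91.0 and 209 CPM. French Bulldogs 43323, 45726, 47198, 60460 and 60462 had 40.4, 37.7, 44.8, 37.3 and 28.8 CPM. The groups did not overlap, but dog 61478 stood well above the other Boxers. The log2 fold change was 1.51 ± 0.37 (SE; unadjusted p = 0.000963, edgeR adjusted p = 1), and it was 1.08 without dog 61478 and 0.79 without dogs 50315 and 61478. The FFPE control of another breed had 50.8 CPM. FFPE tumours had 70.5 to 358 CPM in Boxers, which overlapped the Boxer controls, and 95.2 to 568 CPM in French Bulldogs, all above the French Bulldog controls. There the breed difference was -0.24 ± 0.52 (SE; edgeR adjusted p = 1), and the difference between tissues was -1.78 ± 0.68 (unadjusted p = 0.0158, edgeR adjusted p = 1).

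Gene classes defined by structure were read against the background of 3.27%. Of 12158 tested genes with several exons, 243 were higher and 160 lower in Boxers at an unadjusted p under 0.05 (3.31%), with a median log2 fold change of -0.03, the same as over all genes. Among 395 short single-exon features, 5 were higher and 7 lower (3.04%), and the median was -0.12. Single-exon genes over 300 bp had 4 higher and 5 lower of 386 (2.33%), with a median of -0.01. Of 181 genes that span 500 kb or more, 3 were higher and 8 lower (6.08%), and the median was -0.07. Of 72 genes on unplaced scaffolds, 4 were higher and 0 lower (5.56%), and the median was 0.16. edgeR called 0 genes in each of these classes after adjustment over all genes.

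Mitochondrially encoded genes, which serve the respiratory chain and mitochondrial translation, had a median log2 fold change of -0.48 over the 36 tested, and 0 of them reached an unadjusted p under 0.05. Their level followed single libraries of both breeds. Relative to the mean of the 9 libraries on the log2 scale, the median of the 15 features of 200 bp or more was -0.85, -0.60, 0.72 and -0.52 in Boxers 36808, 50276, 50315 and 61478. It was -0.76, -0.19, 0.02, 0.51 and 1.27 in French Bulldogs 43323, 45726, 47198, 60460 and 60462. The 21 shorter features had medians of -0.83 to 1.05 in Boxers and -1.36 to 1.55 in French Bulldogs. The longer and the shorter features went opposite ways in French Bulldog 60460, at 0.51 and -1.36, and in French Bulldog 45726, at -0.19 and 0.40. In Boxer 50276 they were at -0.60 and 0.0005. The first 3 Mb of chromosome 12, which hold the dog's major histocompatibility genes (the highly variable genes of antigen presentation), had 5 higher and 0 lower of 90 tested genes in Boxer controls at an unadjusted p under 0.05 (5.56%), with a median of 0.08. In tumours the same segment had 1 higher and 0 lower of 98 (1.02%, against 2.04% of all genes tested in tumours).

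By chromosome, 0 of 39 shifts passed adjustment. The shift of a chromosome in a library was the median of its genes relative to their mean, less the same median over all genes of that library. The smallest p was that of chromosome 38, with mean shifts of 0.12 in Boxers and -0.15 in French Bulldogs (two-sided exact permutation p = 0.0317, 0.987 adjusted over 39 chromosomes). French Bulldog 60462 had the lowest value there, -0.45. Chromosome 13 had mean shifts of 0.11 in Boxers and -0.06 in French Bulldogs (exact permutation p = 0.0794, adjusted p = 0.987). Its difference was 0.17, and 0.08 without Boxer 61478.

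Boxer 61478, and after it French Bulldog 60462, had the highest levels among the controls of genes raised in tumours relative to genes lowered there. A tumour gene score was made from fresh-frozen libraries of dogs other than these 9 (6 tumours, 4 controls), in which edgeR called 1339 genes higher and 689 lower in tumours, of 15423 tested. The score of a library was the median level of the first set minus that of the second, on the log2 scale and relative to the mean of the 9 FFPE controls. It was -0.35, -0.33, 0.26 and 1.05 in Boxers 36808, 50276, 50315 and 61478. In French Bulldogs 43323, 45726, 47198, 60460 and 60462 it was -0.37, 0.20, -0.51, -0.51 and 0.75. Dog 61478 was the highest of the 9 and dog 60462 the next. Boxer tumours scored 1.43 to 3.17 and French Bulldog tumours 0.31 to 3.40, so that both dog 61478 and French Bulldog control 60462 lay above the lowest French Bulldog tumour and below all Boxer tumours. Of these 10 FFPE tumours, 4 came from dogs whose fresh-frozen tumour had helped to set the score. The 4 fresh-frozen controls behind the score were all of other breeds. The fresh-frozen tumours came from 3 French Bulldogs, 1 Boxer and 2 dogs of other breeds. The 2 gene sets may therefore hold differences of breed as well as of tumour, which was not tested.

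Dog 61478 was also the control with the highest shift of chromosome 13, at 0.38, where the other Boxer controls had -0.02 to 0.08 and the French Bulldog controls -0.17 to 0.04. Boxer tumours had shifts of chromosome 13 of 0.45 to 0.87 and French Bulldog tumours of -0.11 to 1.02. For chromosome 35 dog 61478 had 0.34, against -0.33 to 0.06 in the other Boxer controls and -0.10 to 0.15 in the French Bulldog controls. Boxer tumours had 0.38 to 0.68 on that chromosome and French Bulldog tumours -0.01 to 1.25. On chromosome 38 dog 61478 also had the highest shift among the controls, at 0.29. The other Boxer controls had -0.08 to 0.23 there and the French Bulldog controls -0.45 to -0.01. Boxer tumours had -0.31 to 0.57 on chromosome 38 and French Bulldog tumours -0.42 to 0.61. Shifts of this dog on other chromosomes are not shown, so its raised values cannot be called particular to chromosomes 13 and 35. What these values reflect in dog 61478 was not tested, and its library is labelled as a control.

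**Figure D5:**
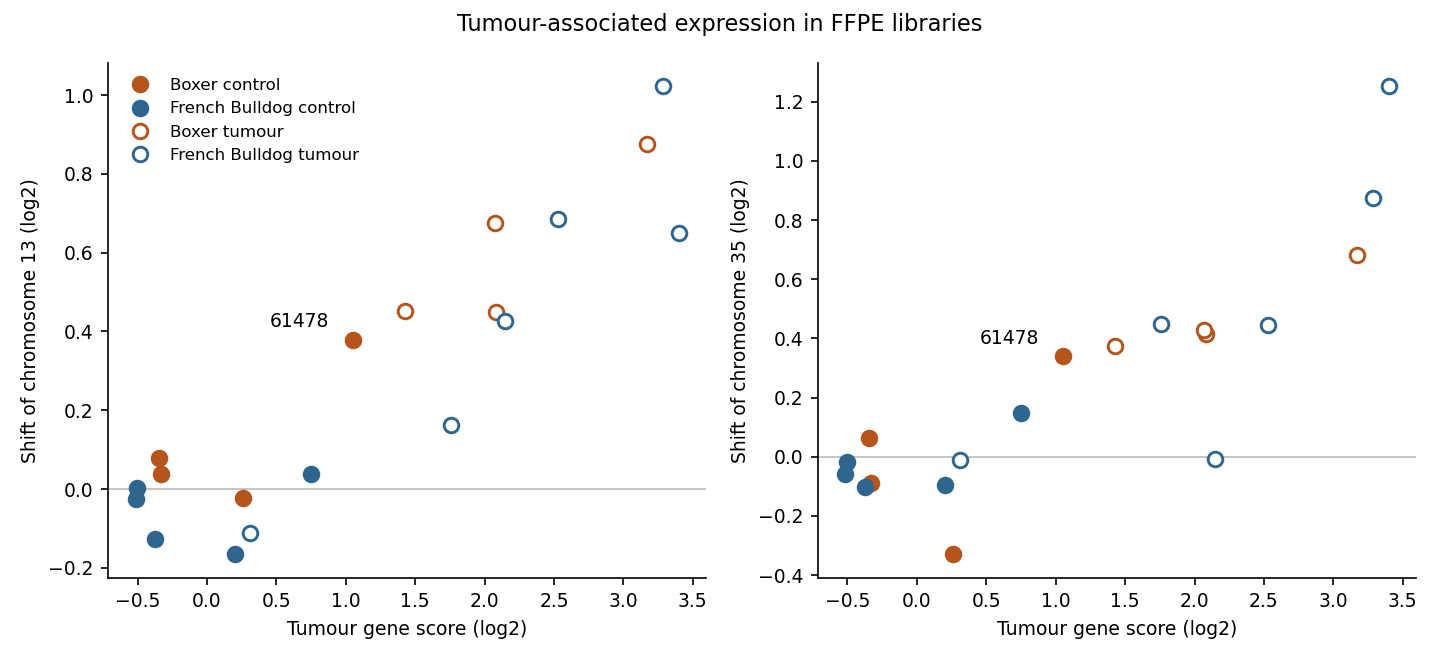
Tumour gene score (horizontal, log2) against the shift of chromosome 13 (left) and chromosome 35 (right) in each FFPE library, with controls filled, tumours open, Boxers orange and French Bulldogs blue. Boxer control 61478 has the highest score (1.05) and chromosome shifts (0.38 and 0.34) among the 9 controls.

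The breed comparison of tumour-raised genes was read with and without dog 61478. This dog was picked for its high level of the same genes, so leaving it out is bound to lower the Boxer values. The 2 readings are a description with no test, and fits without any other library are not given for this set. Of the 1024 genes of the tumour-raised set that were tested in controls, 80 were higher and 3 lower in Boxers at an unadjusted p under 0.05 (7.81% and 0.293%), with a median log2 fold change of 0.28, against 1.94%, 1.33% and -0.03 over all genes. Of the 80, 61 had their highest value in dog 61478 and 19 in dog 50315. Without dog 61478, 12 of these 80 were still at an unadjusted p under 0.05. In that fit, 14 of 1020 tumour-raised genes were higher (1.37%) and 17 lower, against 231 higher and 164 lower of all 13353 genes tested. The median of the tumour-raised genes was -0.05. Of the 623 tumour-lowered genes, 5 were higher and 15 lower in Boxers (0.803% and 2.41%), with a median of -0.08. In bulk tissue, more cells of a type and more RNA per cell cannot be told apart.

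The breed difference was then compared between tissues. In FFPE tumours the edgeR test left 0 of 13873 genes past adjustment (0%), and DESeq2 and limma voom also called 0. An unadjusted p under 0.05 was found there for 283 genes (2.04%), 196 of them higher in Boxers (1.41%) and 87 lower (0.627%). In the joint fit of both tissues with tissue as a covariate, 0 of 14107 genes passed with edgeR, whereas DESeq2 called 6, all higher in Boxers, and limma voom 1, lower in Boxers. The unadjusted p was under 0.05 in 604 genes of that fit (4.28%), 376 higher (2.67%) and 228 lower (1.62%). The test of whether the breed difference itself differed between tissues called 0 of 14760 genes by edgeR, DESeq2 and limma voom. By edgeR the unadjusted p was under 0.05 in 289 genes (1.96%), with the difference more positive in tumours in 171 (1.16%) and more negative in 118 (0.799%).

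Across genes, fold changes between the breeds in controls and in tumours, which share no dog and no library, were weakly related. Over 12593 genes tested in both, Pearson's r was 0.199 and Spearman's rho 0.179, and 56.2% of genes had the same sign. Genes are not independent replicates, so these values carry no p. Of 403 genes at an unadjusted p under 0.05 in controls, 306 (75.9%) had the same sign in tumours, and of 241 such genes in tumours, 150 (62.2%) had the same sign in controls. The 2 sets shared 16 genes, of which 12 were higher and 1 lower in Boxers in both tissues. How many genes unrelated sets of these sizes would share was not worked out, here or in the subsets that follow. Among dogs without a fresh-frozen library the correlation was 0.254 over 12328 genes, and 13 genes were shared, 2 of them higher and 8 lower in Boxers in both tissues, so that the direction of the shared genes depended on the dogs included. Without Boxer 50315 and French Bulldog 60462 it was 0.170 over 12931 genes, and 12 genes were shared, 10 of them with the same sign.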

How the data were processed

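Raw counts per gene were deposited, which the authors had made from read pairs with featureCounts 1.6.0 on the forward strand with a mapping quality of at least 10, Ensembl release 100 gene models and the CanFam3.1 assembly, per the file headers. Fragments of several genes or positions were not counted, per the file headers. The tools fastp and STAR are named without versions in the submitters' processing notes. Libraries carried molecular identifiers of 12 nt, per the labels' protocols, and collapsing by them is not stated. The table held 30951 genes, 33 libraries and 25 dogs, with 0 columns of other samples. Groups and dog numbers came from the labels, each library of a group being a different dog.

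Tests were run with edgeR 4.0.16 under R 4.3.3 (TMM scaling after filterByExpr, then robust quasi-likelihood F tests), with Benjamini-Hochberg adjustment at 0.05 over all genes of a fit. Fits compared Boxers with French Bulldogs in FFPE controls, in FFPE tumours and in both with tissue as a covariate, and tested the interaction. DESeq2 1.42.0, limma 3.58.1 (voom with quality weights), other scaling, filters, thinning, depth as a covariate, subsets of dogs and leaving out each library were alternatives. Scripts were tested on simulated data. CPM are counts per mega-count of the library, and log2 CPM used TMM factors and a prior count of 2. Single values were compared by exact permutation of the breed labels.

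Named genes were those with an average log2 CPM of at least 2 and the smallest unadjusted p, the first 2 in each direction, since no gene passed adjustment. The cell type markers and gene lists that had been drawn up could not be used, as no identifier pairs with a name. The comparison, lists and tests were chosen with earlier results of these data known. The pair of 113 bp features, the tumour gene score and the count of highest values per library were added after the data were seen.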

Additional observations from a re-analysis of the deposited data

Results flagged for a closer look

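Of 42 sets of 4 to 6 values checked, 4 had 1 library far from the others of its group, where chance gives about 1 in 20. French Bulldog control 60462 detected 26124 genes, and the next French Bulldog control 19902. After thinning to 406406 counts it detected 20610, and the next 14672. The same library had the lowest shift of chromosome 38 among French Bulldog controls, -0.45, with the nearest at -0.13. Boxer tumour 43917 had 37.5% of the counts of the 113 bp pair on the chromosome 13 feature, and the nearest Boxer tumour 1.15%. The cause was not tested in any of these.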

How the results depend on the processing

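The count of 0 genes called between Boxer and French Bulldog controls became 3 with DESeq2 (1 higher, 2 lower in Boxers), 2 with no filter on low counts (1 higher, 1 lower), and 1 (lower) with limma voom, with log10 total counts as a covariate and in dogs without a fresh-frozen library. With each library left out it ran from 0 to 1, the 1 arising without French Bulldog 60460 and without French Bulldog 60462. In each of these fits with 1 call, the gene called was ENSCAFG00000022575. In both tissues together it became 6 with DESeq2, 1 with limma voom, and 0 to 1 with each library left out (1 without Boxer tumour 43917). In tumours and for the interaction, all 21 and 29 alternatives gave 0. The split of genes at an unadjusted p under 0.05 moved from 252 higher and 172 lower to 489 and 1120 with no filter, 340 and 910 with the dispersion of all FFPE libraries, 313 and 418 with that of all FFPE controls, and 241 and 327 with depth as a covariate. These fits also tested more genes (28929, 19690, 17640 and 14558, against 12975). It was 479 and 183 without Boxer 36808.

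The distance between less within breeds turned from -0.00302 to 1.38 with Euclidean distance, on another scale (one-sided exact permutation p = 0.397), and ran from -0.0265 to 0.0108 with each library left out. The difference of chromosome 38 was -0.0256 with no filter. With each library left out, the difference ran from -0.634 to 3.103 points for unplaced scaffolds, from -4.95 to 0.0667 for the 10 highest genes and from -1.22 to 0.136 for short single-exon features. The cause of these changes was not tested. No paired analysis was possible because no dog belongs to both breeds and the groups share no number. Limits: 4 against 5 dogs, 1 library of 406406 counts, ages stated for 4 of 9 dogs, and fresh-frozen partners for 2 French Bulldogs only. Archive history was therefore addressed only by leaving those 2 dogs out. The part of age was not tested in controls, nor in tumours, where the oldest dogs of stated age were Boxers.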
